A study of Mus musculus with 24 samples.

Results

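Klf2, Klf4, Klf6, Klf9 and Klf10 are 5 members of the Krüppel-like factor family, and they were taken from a table of 19661 mouse genes by their gene symbols. The table holds RNA-seq of bilateral dorsal hippocampus from 24 mice, which make up 4 groups of 6 with a library for each mouse. Wild-type animals (WT, strain C57BL/6J) and animals heterozygous for a mutant allele of Actl6b, the gene that encodes the neuronal chromatin-remodelling subunit BAF53b (Baf53b+/-, strain B6J.129S6-Actl6b<tm1Grc>), were either killed straight from the home cage or killed 30 min after training in an object location memory task. In that task a mouse explores objects at fixed places and its memory for the places is probed later. The labels give neither age nor sex. Their strain differs together with the genotype, so allele and strain background cannot be told apart, and the home cage animals were the only controls for training, so the handling, novelty and exploration that come with training are part of every training difference below.

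Krüppel-like factors bind GC-rich and CACCC sequences through C2H2 zinc fingers at the carboxyl end of the protein, and they activate or repress transcription through the partners that their amino ends recruit. KLF2 and KLF4 are best known from blood vessels, where shear stress induces both through the kinases MEKK3, MEK5 and ERK5 and the MEF2 factors, and KLF4 is also a pluripotency factor. KLF6 is induced after tissue injury and supports axon growth, KLF9 is induced by glucocorticoid and thyroid hormone in neurons, and KLF10 is the TGF-beta inducible early gene. Krüppel-like factors as a family also set the capacity of neurons to grow axons, some members raising it and KLF4 and KLF9 lowering it.

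In the mm9 coordinates of the deposited table, Klf2 spans chr8:74842961-74845553, Klf4 spans chr4:55540009-55545347, Klf6 spans chr13:5860735-5869639, Klf9 spans chr19:23215716-23241401 and Klf10 spans chr15:38224168-38230462. Promoter sequences of 4 of the 5 genes were matched in RefSeq, build GRCm38.p6, and the 250 bases before the annotated transcription start are printed 5′ to 3′ for both genes that passed the test of training, and for Klf9, the most abundant member, which did not. Searches on both strands covered a MEF2 site, a CArG box, the CREB core TGACG and its full palindrome TGACGTCA. They also covered the AP-1-like pattern TGANTCA, with any middle base, and the TATA box TATAAA. Every match of these patterns is in capitals. Klf2 is at chr8:72318812-72319061 on the plus strand, Klf4 at chr4:55532476-55532725 on the minus strand and Klf9 at chr19:23140976-23141225 on the plus strand.
Klf2: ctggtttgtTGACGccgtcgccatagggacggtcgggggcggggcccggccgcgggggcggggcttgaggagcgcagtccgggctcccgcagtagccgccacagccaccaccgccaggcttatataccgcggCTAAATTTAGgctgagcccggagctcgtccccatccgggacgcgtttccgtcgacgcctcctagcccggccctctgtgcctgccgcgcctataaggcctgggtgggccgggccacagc
Klf4: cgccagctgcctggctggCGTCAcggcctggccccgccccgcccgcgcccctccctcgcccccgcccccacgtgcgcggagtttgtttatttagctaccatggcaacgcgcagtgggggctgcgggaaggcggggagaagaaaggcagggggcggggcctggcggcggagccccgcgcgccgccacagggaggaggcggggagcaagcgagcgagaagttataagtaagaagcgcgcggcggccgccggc
Klf9: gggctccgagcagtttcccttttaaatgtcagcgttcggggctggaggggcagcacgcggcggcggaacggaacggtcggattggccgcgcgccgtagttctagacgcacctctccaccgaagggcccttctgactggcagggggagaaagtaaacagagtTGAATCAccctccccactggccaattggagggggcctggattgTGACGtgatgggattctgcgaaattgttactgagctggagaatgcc

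The Klf2 window held the only match of this MEF2 pattern in the 4 matched promoters, CTAAATTTAG at -118 to -109. Of 32851 promoter windows of this length, 0.508% held such a match. Looser forms of the MEF2 site were not searched. TGACG, the core of the binding site of CREB, was present once in each of Klf2, Klf4 and Klf9, against 17.8% of all windows. TGANTCA, a pattern looser than the AP-1 consensus because it allows any middle base, was present in Klf9, against 6.75% of all windows. The match was TGAATCA, with A in the middle, so it is not called an AP-1 site here. The GC box GGGCGG matched at 2 places in Klf2, 4 in Klf4, 1 in Klf6 and 0 in Klf9, and 32.7% of all windows held at least 1. CACCC, the core that Krüppel-like factors bind, matched once each in Klf2 and Klf9, and 52.0% of all windows held it. In Klf9 it shares bases with the TGANTCA match. The CArG box, the full palindrome TGACGTCA and TATAAA had no match in the 4 windows, and 1.47%, 1.55% and 12.4% of all windows held them. The windows were GC-rich, at 71.2% for Klf2, 74.0% for Klf4, 64.8% for Klf6 and 59.6% for Klf9. These matches describe letters in a short window and do not show binding.

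Before the members are described, a few facts about the libraries bear on them. Actl6b lay between 46.4 and 54.4 RPKM (reads per kilobase of transcript, scaled to the reads of the library) in the 12 WT libraries and between 27.3 and 32.4 RPKM in the 12 Baf53b+/- libraries, so the genotype labels were borne out. Fos, the activity-induced transcription factor, lay between 1.10 and 2.74 RPKM in the home cage libraries and between 10.8 and 23.4 RPKM after training, so the condition labels were too. Depth recovered from the values was 28.4 to 46.9 M reads. Transcripts of the choroid plexus, the secretory tissue beside the hippocampus, were over 3 times their median in 7 libraries spread over all 4 groups. By the Y-linked gene Ddx3y, 5 of 6 Baf53b+/- home cage animals were male against 3 of 6 in each other group. The RPKM of 12 hippocampal excitatory neuron markers were summed. Camk2a and Slc17a7, at means of 1304.5 and 517.5 RPKM over the 24 libraries, made up most of that sum. Prox1 and Wfs1, at 27.4 and 60.6 RPKM, made up little of it. The sum ran from 2178 to 2461 in WT home cage libraries and from 1836 to 2425 in WT trained ones. In Baf53b+/- animals it ran from 2042 to 2485 in home cage libraries and from 2089 to 2358 in trained ones. Tissue pieces hold many cell types, and in such bulk samples a change in the number of expressing cells and a change in RNA per cell cannot be told apart.

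Per unit of transcript length, the 5 genes kept the same order in every library. Klf9 had the highest level, 67.3 ± 5.09 RPKM (SD over 24 libraries), followed by Klf10 at 11.5 ± 1.63, Klf6 at 7.72 ± 1.02, Klf2 at 4.15 ± 1.23 and Klf4 at 2.14 ± 0.532. Each gene was above the next in 24 of 24 libraries. The mean of Klf9 was 5.83 times that of Klf10, and the other neighbours were 1.5 to 1.94 times apart. Between animals, however, the ranges of the neighbours below Klf9 met: the lowest Klf10 value, 8.83 RPKM, was under the highest Klf6 value, 10.0 RPKM. The lowest Klf6 value was likewise under the highest Klf2 value, and the lowest Klf2 value under the highest Klf4 value. The depth behind even the least abundant member was 46.0 to 106 reads per kilobase for Klf4.

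Klf2 and Klf4 rose after training in both genotypes, and Klf6, Klf9 and Klf10 did not pass the test in either. Training was tested with limma on log2(RPKM + 0.5) over the 12399 genes that averaged 1 RPKM or more across all libraries, a filter that all 5 members passed, at an adjusted p under 0.05. In WT animals 2 of the 5 members were called, where 1.08% of all genes tested were called. In Baf53b+/- animals the same 2 of 5 were called, against a background of 1.03%. Averaged over genotype the 2 were again the only members called, against 4.17% of all genes. The median training difference over the 5 members was 0.21 in WT and 0.20 in Baf53b+/- animals on the log2 scale, while the median over all genes tested was 0.01 and -0.0014. The 5 members were chosen with earlier results of these data known. These counts and medians therefore describe the members and are no independent test of enrichment.

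**Figure D1:**
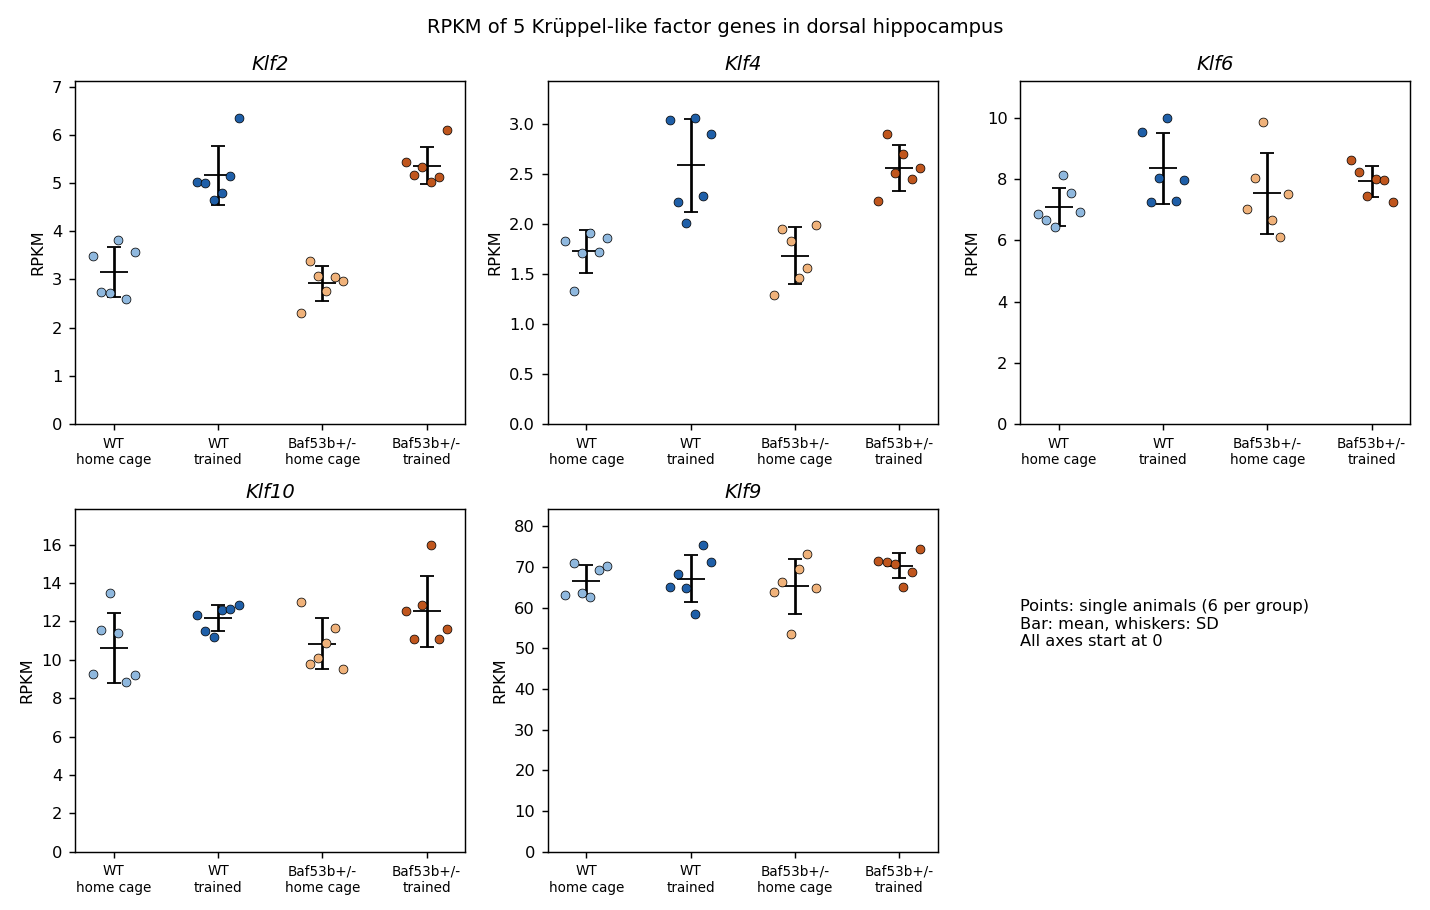
RPKM of Klf2, Klf4, Klf6, Klf10 and Klf9 in each animal by group, with the group mean (bar) and SD (whiskers), on axes that start at 0. The trained animals of both genotypes lie above all home cage animals of their genotype for Klf2 and Klf4, and the groups overlap for Klf6, Klf10 and Klf9.

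Klf2 in WT home cage animals ran from 2.60 to 3.82 RPKM with a median of 3.11, and in WT trained animals from 4.65 to 6.36 with a median of 5.02. In Baf53b+/- home cage animals it ran from 2.29 to 3.38 RPKM with a median of 3.01, and in Baf53b+/- trained animals from 5.03 to 6.10 with a median of 5.25. All 12 trained animals were thus above all 12 home cage animals, whatever the genotype. For how many of all genes this held was not counted. Within each genotype such a full separation, with all 6 trained animals above all 6 home cage animals, was found for 1.08% of the genes tested in WT and 1% in Baf53b+/- animals. The group means were 3.16 ± 0.527 and 5.16 ± 0.610 RPKM (SD, n = 6 each) in WT animals, a 1.64-fold rise, and 2.92 ± 0.366 and 5.36 ± 0.389 RPKM in Baf53b+/- animals, a 1.84-fold rise. On the log2(RPKM + 0.5) scale, where the added 0.5 shrinks the differences of weakly expressed genes, Klf2 rose by 0.64 ± 0.09 (SE; limma adjusted p = 6.65e-05) in WT and by 0.78 ± 0.09 (limma adjusted p = 3.13e-06) in Baf53b+/- animals. By p-value it stood at rank 24 of the 12399 genes in WT and at rank 13 in Baf53b+/- animals. The two-sided exact permutation test over all ways to divide the 12 animals gave p = 0.00216 in each genotype, the smallest it can give.

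Klf4, the least abundant member, rose as well. It ran from 1.33 to 1.91 RPKM (median 1.78) in WT home cage animals and from 2.01 to 3.06 RPKM (median 2.59) after training. In Baf53b+/- animals it ran from 1.29 to 1.99 RPKM (median 1.70) in the home cage and from 2.23 to 2.90 RPKM (median 2.54) after training. Again no trained animal reached down to a home cage animal of either genotype, though the gap in WT was narrow, between 1.91 and 2.01 RPKM. Across the genotypes it was narrower, between 1.99 RPKM in the Baf53b+/- home cage and 2.01 RPKM in WT trained animals. The WT trained animals fell into 3 near 3 RPKM (animals 2403, 2421 and 2436, at 3.04, 3.06 and 2.90) and 3 between 2.01 and 2.28 RPKM. The means rose from 1.73 ± 0.211 to 2.59 ± 0.466 RPKM (SD, n = 6 each) in WT and from 1.68 ± 0.286 to 2.56 ± 0.229 RPKM in Baf53b+/- animals, that is 1.5-fold and 1.52-fold. The log2 differences were 0.46 ± 0.10 (limma adjusted p = 0.0115) and 0.50 ± 0.10 (limma adjusted p = 0.00604), and the exact permutation test gave p = 0.00216 in each genotype. In WT animals the call for Klf4 depended on the model: the adjusted p was 0.0541 when the 2 WT groups were fitted alone, at an unaltered difference of 0.46. It was 0.0690, at a difference of 0.40, when the hippocampal marker sum was a covariate, an alternative chosen after seeing the data.

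Klf6 was higher after training in WT animals by an amount that did not pass the adjusted test. It ran from 6.44 to 8.13 RPKM with a median of 6.89 in WT home cage animals and from 7.24 to 10.0 RPKM with a median of 8.01 in WT trained animals. In Baf53b+/- animals it ran from 6.10 to 9.87 RPKM with a median of 7.27 in the home cage and from 7.25 to 8.61 RPKM with a median of 8.0 after training. The groups overlapped in both genotypes, and the single highest values belonged to WT trained animals 2421 and 2403 and to Baf53b+/- home cage animal 2415. The log2 difference was 0.21 ± 0.09 (limma adjusted p = 0.349) in WT and 0.08 ± 0.09 (limma adjusted p = 0.797) in Baf53b+/- animals. The exact permutation test, which is not adjusted over genes, gave p = 0.039 in WT and p = 0.439 in Baf53b+/- animals. The 3 animals highest in Klf6 had low hippocampal marker sums. Klf6 was at 10.0, 9.54 and 9.87 RPKM in animals 2421, 2403 and 2415. Their marker sums were 1836, 2093 and 2042 RPKM, among the 5 lowest of all libraries. The other 2 of those 5, WT trained animal 2412 and Baf53b+/- trained animal 2416, had Klf6 at 8.03 and 8.01 RPKM. With that sum as a covariate the WT difference was 0.06 ± 0.07 (limma adjusted p = 0.838).

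Klf10 lay somewhat higher after training in both genotypes, again short of the adjusted test. It ran from 8.83 to 13.5 RPKM with a median of 10.3 in WT home cage animals and from 11.2 to 12.9 RPKM with a median of 12.5 after training. In Baf53b+/- animals it ran from 9.55 to 13.0 RPKM with a median of 10.5 in the home cage and from 11.1 to 16 RPKM with a median of 12.1 after training. The groups overlapped in both genotypes: WT home cage animal 2405, at 13.5 RPKM, was above every WT trained animal, and Baf53b+/- home cage animal 2400, at 13.0 RPKM, was above 5 of the 6 trained animals of its genotype. The differences were 0.20 ± 0.10 in both genotypes (limma adjusted p = 0.438 in WT and 0.454 in Baf53b+/- animals). The unadjusted limma p was 0.0429 and 0.0499, and the exact permutation p was 0.0801 and 0.0866. Averaged over genotype the difference was 0.20 ± 0.07 (limma adjusted p = 0.101), and without WT home cage animal 2405 it was 0.24 ± 0.06 and passed the test (limma adjusted p = 0.0317).

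Klf9 did not pass the test in either genotype, and its 4 group means lay between 65.2 and 70.2 RPKM. It ran from 62.7 to 70.9 RPKM (median 66.4) in WT home cage animals and from 58.4 to 75.2 RPKM (median 66.6) after training. In Baf53b+/- animals it ran from 53.5 to 73.2 RPKM (median 65.5) in the home cage and from 65.1 to 74.3 RPKM (median 70.8) after training. The trained range enclosed the home cage range in WT, and in Baf53b+/- animals the ranges overlapped. The differences were 0.01 ± 0.06 (limma adjusted p = 0.974; 95% interval -0.12 to 0.13) in WT and 0.11 ± 0.06 (limma adjusted p = 0.525; 95% interval -0.01 to 0.24) in Baf53b+/- animals. With the hippocampal marker sum as a covariate, the alternative chosen after seeing the data, the difference averaged over genotype was 0.13 ± 0.03 and passed the test (limma adjusted p = 0.00897), against 0.06 ± 0.04 (limma adjusted p = 0.536) without it.

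The response to training was not shown to differ between the genotypes for any member. The interaction, the response in Baf53b+/- minus that in WT animals on the log2 scale, was 0.15 for Klf2 (95% interval -0.11 to 0.40), 0.03 for Klf4 (-0.25 to 0.31), -0.13 for Klf6 (-0.39 to 0.13), -0.01 for Klf10 (-0.29 to 0.27) and 0.10 for Klf9 (-0.07 to 0.28). The limma adjusted p was 0.985 to 0.997 for the 5. The value for Klf6 depended on the libraries and the model: it was -0.30 ± 0.15 (limma adjusted p = 0.82) without the 7 libraries with much choroid plexus RNA and -0.02 ± 0.09 with the hippocampal marker sum as a covariate. The intervals are wide beside the training effects, and a p-value above the threshold does not show that the responses were equal. Limma called 0 of 12399 genes for the interaction (0%), and 309 genes (2.49%) had an unadjusted p under 0.05.

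None of the 5 genes passed the test of genotype. In the home cage the Baf53b+/- minus WT differences were -0.09 for Klf2, -0.03 for Klf4, 0.07 for Klf6, -0.04 for Klf9 and 0.03 for Klf10, each with a limma adjusted p of 0.999. After training they were 0.05 for Klf2, -0.002 for Klf4, -0.06 for Klf6, 0.07 for Klf9 and 0.03 for Klf10, with limma adjusted p of 0.993 to 0.998. No member was called, where 0.00807% of all genes were called in each condition, which is 1 gene, Actl6b. The bounds of the 10 intervals (95%) farthest from 0 were -0.27, for Klf2 in the home cage, and 0.25, for Klf6 in the home cage. Without the libraries with much choroid plexus RNA the Klf6 differences were 0.15 in the home cage and -0.15 after training (limma adjusted p = 0.991 and 0.845).

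None of the other Krüppel-like factors passed the test of training. Of 12 further Klf genes in the table, 8 passed the filter on low values, and 0 were called by limma in WT, in Baf53b+/- animals or on average, with 2, 0 and 1 at an unadjusted p under 0.05. Over all genes tested 1.08%, 1.03% and 4.17% were called in these comparisons and 11.1%, 11% and 16.8% had an unadjusted p under 0.05, so few or none of 8 genes lies near the background. Their median difference averaged over genotype was 0.03, against 0.0036 for all genes. Klf13, an abundant relative of Klf9 at 43.5 ± 3.03 RPKM (SD, n = 24), differed by 0.01 ± 0.04 (limma adjusted p = 0.96). Klf15, which like Klf9 is induced by glucocorticoids, ran from 6.84 to 8.62 RPKM in WT home cage and from 8.20 to 9.85 RPKM in WT trained animals, a difference of 0.17 ± 0.07 (limma adjusted p = 0.273). Klf5, the relative that promotes epithelial proliferation, had the largest difference of the 8 in WT, 0.60 ± 0.19 (limma adjusted p = 0.161), from 1.71 to 3.22 RPKM in the home cage to 2.43 to 6.00 RPKM after training, and -0.05 ± 0.19 in Baf53b+/- animals (limma adjusted p = 0.957). The interaction for Klf5, -0.65 ± 0.27, did not pass either (limma adjusted p = 0.985). The highest Klf5 values were those of WT trained animals 2421 and 2403 (6.00 and 4.42 RPKM) and Baf53b+/- home cage animal 2415 (4.47 RPKM). These animals were also the highest in Klf6, and their part in the Klf5 differences was not tested. Klf1, Klf8, Klf14 and Klf17 lay below the filter. Of 9 Sp genes, the closest relatives of the family, 5 were tested and limma called 0 on average, with a median of 0.05 and 1 at an unadjusted p under 0.05, again near those shares.

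**Figure D2:**
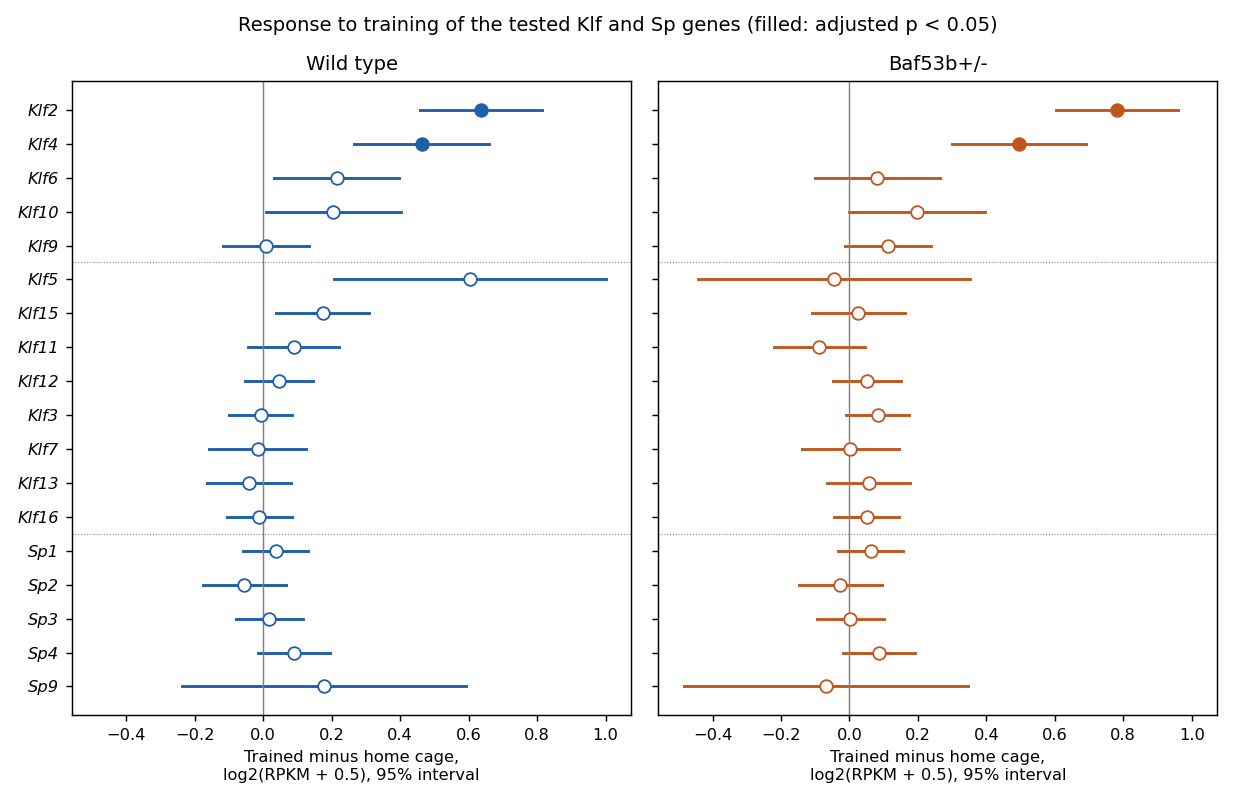
Trained minus home cage difference on the log2(RPKM + 0.5) scale with its 95% interval for the 13 tested Klf genes and the 5 tested Sp genes, WT left and Baf53b+/- right, filled where the limma adjusted p was under 0.05. Klf2 (0.64 and 0.78) and Klf4 (0.46 and 0.50) are the filled points in both panels, and Klf5 in WT has a wide interval around 0.60.

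The genes whose pattern over the 24 libraries was most like that of each member differed between members. For Klf2 they were Egr1 (Pearson r = 0.95), Junb (0.94) and Fosb (0.94), transcription factors of the early response to neuronal activity. For Klf4 they were Arid5a (0.89), a regulator of RNA stability, Klf2 itself (0.88) and Stk40 (0.86). These values largely repeat the step between home cage and trained libraries: Egr1 was 36.8 to 51.5 RPKM in all home cage and 85.7 to 123 RPKM in all trained animals. For Klf6 they were Ctgf (0.88), a secreted matrix protein, Cit (0.87) and Lrrtm3 (0.86). For Klf9 they were Ablim3 (0.87), B3gnt2 (0.86) and Elmo2 (0.86), and for Klf10 they were Zscan21 (0.77), Mepce (0.76) and Zscan20 (0.76). All are correlations of log2 values over 24 libraries that share depth and dissection, and they are descriptions.

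When each group's mean was subtracted, so that only differences between animals of a group counted, the nearest genes were others, except that Elmo2 was again among those of Klf9. For Klf2 they were Npb (0.78), Tcirg1 (0.71) and Tnfsf12 (0.67). For Klf4 they included Coro6 (0.82) and Fgfr3 (0.78). For Klf6 they were Fam81a (0.90), Samd10 (0.90) and Gap43 (0.90), the last a growth-cone protein. For Klf9 they were Elmo2 (0.93), Orai2 (0.90) and Abi1 (0.89), and for Klf10 they were Tomm34 (0.78), Thumpd1 (0.72) and Rg9mtd3 (0.70). Among the members themselves, Klf2 and Klf4 correlated at 0.51 within groups, Klf4 and Klf6 at 0.56, and Klf6 and Klf9 at -0.75. The 3 animals highest in Klf6, 2421, 2403 and 2415, were also the highest in Gap43 of all 24, at 106, 87.9 and 131 RPKM, and in Ctgf, at 9.37, 6.19 and 9.46 RPKM. WT trained animals 2421 and 2403 were the highest in Klf4 as well. The part of the tissue piece or its cell makeup in these patterns was not tested.

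**Figure D3:**
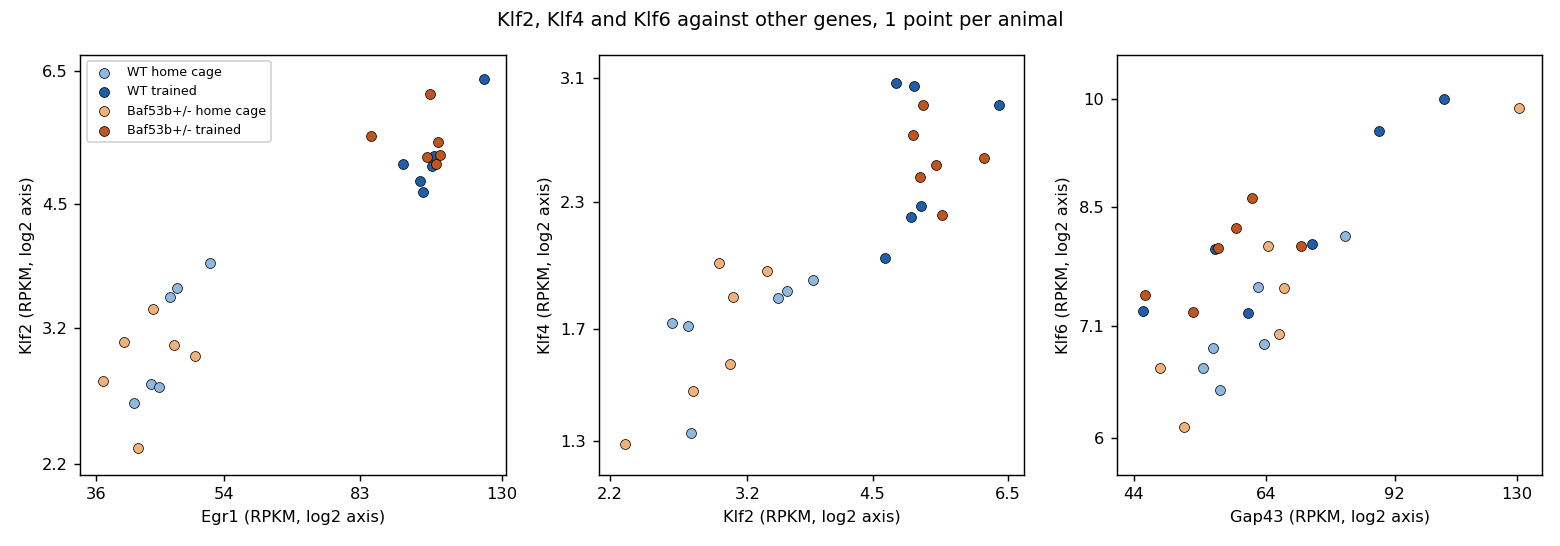
Klf2 against Egr1, Klf4 against Klf2 and Klf6 against Gap43 in RPKM on log2 axes, 1 point per animal, coloured by group. Home cage and trained animals form separate clouds in the first 2 panels. In the last panel Klf6 is higher where Gap43 is higher, and the upper end holds the 3 animals at 87.9, 106 and 131 RPKM of Gap43. Toward the lower end of Gap43 the trained animals lie above the home cage animals in Klf6.

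The genes that act on or with the 5 factors were taken as lists, and their counts on average over genotype stand against the 4.17% of all genes called and the 16.8% with an unadjusted p under 0.05. The lists, too, were chosen with earlier results of these data known, so their counts are descriptions. The first was the pathway from MEKK3 and MEKK2 through ERK5 and the MEF2 factors to Klf2 and Klf4. It was taken with the CCM proteins that restrain the pathway in endothelium. Of its 13 tested genes 1 rose on average and 0 fell, a share near the 4.17% called. It was Map3k2, which encodes MEKK2, from 2.82 ± 0.109 to 3.01 ± 0.133 RPKM in WT and from 2.81 ± 0.272 to 3.21 ± 0.126 RPKM in Baf53b+/- animals (SD, n = 6 each; average log2 difference 0.13 ± 0.03, limma adjusted p = 0.0309). No gene of this list passed within either genotype. Its median difference was 0.04 against 0.0036 for all genes, and 9 of the 13 differences were above 0. An unadjusted limma p under 0.05 was found for 6 of the 13, a larger share than the 16.8% of all genes. The lowest of the 13 differences was that of Mef2a, which encodes a MEF2 factor, at -0.08 ± 0.03 (limma adjusted p = 0.243).

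Of the genes that KLF2 or KLF4 is known to regulate in endothelium, 2 of 10 tested rose on average, where 4.17% of all genes were called, and 0 fell. The median difference was 0.12, and 7 of the 10 differences were above 0. Adamts1, a secreted metalloprotease, went from 4.59 ± 0.373 to 5.63 ± 0.293 RPKM in WT animals and from 4.50 ± 0.665 to 6.11 ± 0.486 RPKM in Baf53b+/- animals, and the average log2 difference was 0.34 ± 0.05 (limma adjusted p = 0.000124). Cdkn1a, the cell cycle inhibitor p21, went from 2.46 ± 0.374 to 3.67 ± 0.480 RPKM in WT and from 2.52 ± 0.360 to 3.20 ± 0.557 RPKM in Baf53b+/- animals, with an average log2 difference of 0.39 ± 0.07 (limma adjusted p = 0.0013). Both genes are also expressed outside vessels. Within a genotype, only Cdkn1a passed in WT (limma adjusted p = 0.0109) and only Adamts1 in Baf53b+/- animals (limma adjusted p = 0.002), and a difference between genotypes was not shown for either. The differences of the other 8 ran from -0.23 ± 0.08 for the prostaglandin transporter gene Slco2a1 (limma adjusted p = 0.111) to 0.36 ± 0.23 for the prostaglandin synthase gene Ptgds (limma adjusted p = 0.484).

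Markers of endothelial cells moved in both directions. Of 18 markers tested, 1 rose and 2 fell on average, where 4.17% of all genes were called. On average 12 of the 18 differences were above 0, 6 had an unadjusted p under 0.05 and the median was 0.05, against 0.0036 for all genes. In Baf53b+/- animals 14 of the 18 were above 0, with a median of 0.08 against -0.0014 for all genes, and in WT animals 9 were, with a median of 0.01. Slc2a1, the glucose transporter of the blood-brain barrier, rose by 0.18 ± 0.03 (limma adjusted p = 0.00167). Sox18, an endothelial transcription factor, fell by 0.30 on the log2 scale (limma adjusted p = 0.00584), from 5.30 ± 0.453 to 3.98 ± 0.368 RPKM in WT and from 5.16 ± 1.05 to 4.27 ± 0.305 RPKM in Baf53b+/- animals. Its relative Sox17 fell by 0.26 on the log2 scale (limma adjusted p = 0.0121). The summed RPKM of the 18 markers, none of them at 0, was 125.0 to 152.9 in WT home cage, 130.2 to 147.4 in WT trained, 132.3 to 154.2 in Baf53b+/- home cage and 144.3 to 159.1 in Baf53b+/- trained animals. The groups overlapped in that sum, and its part in the rise of Klf2 and Klf4 was not tested. Of the markers of mural cells (10), microglia (13), astrocytes (10), oligodendrocytes (10), choroid plexus (15 tested), meningeal fibroblasts (8) and hippocampal neurons (12), 0 were called on average by limma, with 1, 2, 0, 0, 0, 0 and 4 at an unadjusted p under 0.05, where 16.8% of all genes had one. Several lists still lay to one side of 0. On average 9 of the 10 mural markers were above 0, with a median of 0.06. Of the 8 meningeal fibroblast markers 7 were above 0 on average, with a median of 0.15. The part of either list in the rise of Klf2 and Klf4 was not tested. The hippocampal neuron markers had a median of -0.14 in WT animals, with 2 of 12 above 0, and 0.01 in Baf53b+/- animals. The oligodendrocyte markers had a median of 0.15 in Baf53b+/- animals, with 10 of 10 above 0, and 0.02 in WT animals. The choroid plexus markers had a median of -0.37 in Baf53b+/- animals, with 0 of 15 above 0, and 0.16 in WT animals, with 12 of 15 above 0. When the 7 libraries with much choroid plexus RNA were left out, Klf2 still rose by 0.63 (limma adjusted p = 0.0074) and 0.81 (limma adjusted p = 0.00161), and Klf4 by 0.58 in each genotype (limma adjusted p = 0.0126 and 0.0244).

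TGF-beta signalling, the pathway for which Klf10 is named, had 1 of 14 tested genes called on average, a share near the 4.17% of all genes. Smad7, the inhibitory Smad, went from 5.53 ± 0.574 to 6.21 ± 0.522 RPKM in WT and from 5.51 ± 0.390 to 6.39 ± 0.463 RPKM in Baf53b+/- animals, and its average log2 difference was 0.18 ± 0.04 (limma adjusted p = 0.0222). The median of the list was 0.02. No gene of the list passed within a genotype.

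The glucocorticoid and thyroid hormone list, chosen beside Klf9, held 8 of 18 genes that rose on average and 0 that fell, where 4.17% of all genes were called, with a median of 0.11. By p-value the leading 4 were Per1, a clock gene (0.43 ± 0.03, limma adjusted p = 4.84e-09), Nfkbia, the NF-kappaB inhibitor (0.39 ± 0.04, adjusted p = 8.43e-07), Ddit4, an inhibitor of mTOR signalling (0.41 ± 0.05, adjusted p = 1.01e-05), and Errfi1, an inhibitor of EGF receptors (0.25 ± 0.04, adjusted p = 0.000354). Per1 is also on the list of early genes, Cdkn1a, another of the 8, is also among the endothelial targets above, and neuronal activity induces several others of these 8. Tsc22d3, the glucocorticoid-induced leucine zipper, rose by 0.34 ± 0.06 (adjusted p = 0.00125), while Fkbp5, the glucocorticoid-induced chaperone, differed by -0.01 ± 0.04 (adjusted p = 0.929) and the thyroid hormone target Hr by 0.13 ± 0.07 (adjusted p = 0.411); these 3 were singled out after their values were seen. Klf9 itself, at 0.06 ± 0.04 on average, lay below the median of this list.

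Of the corepressors, coactivators and a ubiquitin ligase that bind Krüppel-like factors, among them Sin3a, Hdac1 and Crebbp, limma called 0 of 12 on average, 1 had an unadjusted p under 0.05 and the median was 0.01. Of 33 tested early genes 27 rose and 0 fell on average, against 4.17% of all genes called, with a median of 0.58. Beside these, the 0.71 ± 0.06 of Klf2 averaged over genotype (limma adjusted p = 1.86e-08) lay above the median and the 0.48 ± 0.07 of Klf4 (limma adjusted p = 6.05e-05) below it. Egr1 rose by 1.23 ± 0.05 and Fos by 2.56 ± 0.13.

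**Figure D4:**
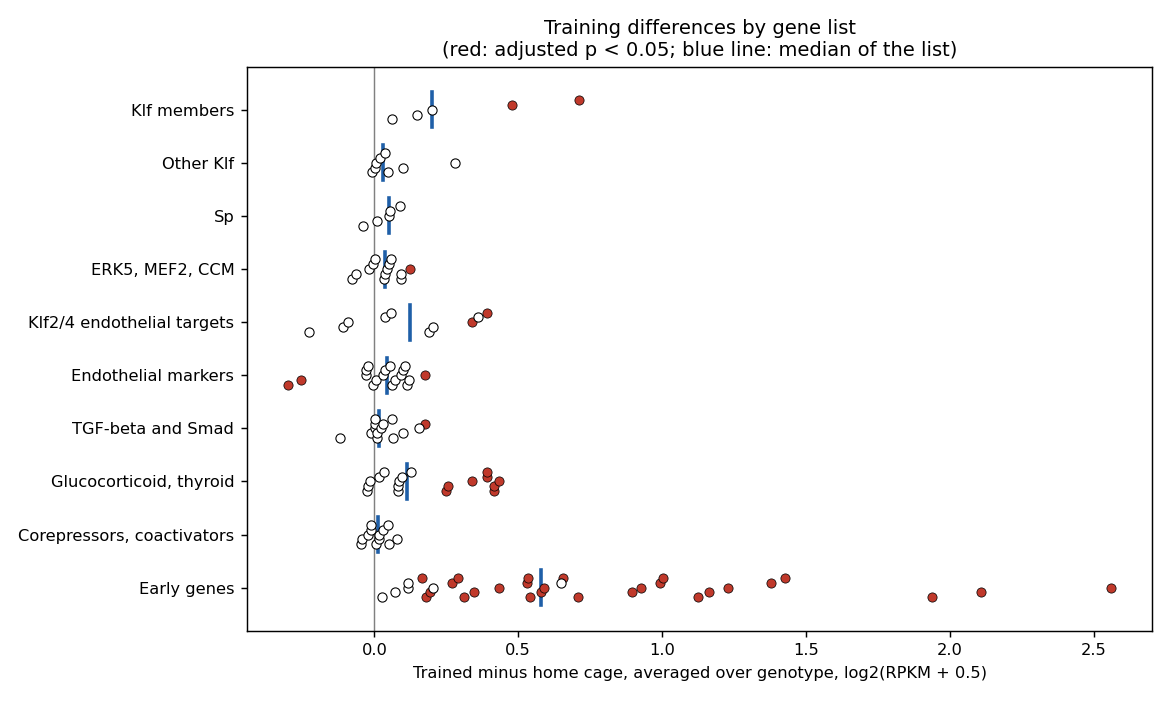
Trained minus home cage difference averaged over genotype, on the log2(RPKM + 0.5) scale, for each tested gene of 10 lists, red where the limma adjusted p was under 0.05, with the median of each list in blue. Klf2 (0.71) and Klf4 (0.48) stand to the right of every other Klf and Sp gene, and the early genes, with a median of 0.58, reach 2.56 for Fos.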

How the data were processed

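Per the labels, RNA from bilateral dorsal hippocampus was isolated on RNeasy columns, made into TruSeq v2 libraries, which keep no strand, and sequenced for 50 single-end cycles in 4 pools; the labels do not assign animals to pools. The submitters' processing notes name CASAVA 1.8.2, Bowtie 0.12.8 and mm9. The authors deposited RPKM values; their gene annotation, read total and treatment of multi-mapping reads: not given in the sources used here. Without strand, overlapping and antisense genes may share reads.

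Values were tested as log2(RPKM + 0.5) for the 12399 genes averaging 1 RPKM or more over 24 libraries, using limma 3.58.1 in R 4.3.3 (4 groups in 1 model, no covariate, empirical Bayes with trend and robust settings, Benjamini-Hochberg adjustment over all genes, threshold 0.05). The 6 comparisons were training in each genotype, training averaged over genotype, genotype in each condition and the interaction; they share libraries. Each member also had a two-sided exact permutation test over every division of 12 animals. Fits were tested on simulated data.

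Depth was read from 971 single-exon genes: at the total chosen, 41.8% to 51.3% of values up to 30 reads lay within 0.05 reads of a whole number, against at most 8.7% (the highest library median) at other totals. With so few whole values a count test was not run.

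The members and gene lists were chosen with earlier results of these data known. Named genes are the members, other Klf and Sp genes, up to 4 called genes by p of each list (else up to 2), the 3 nearest genes of each member in 2 correlations (1 of which is not reported here), Actl6b and Fos. Alternatives tried were pseudocounts of 0.1 and 1, a filter of 0.1 RPKM or none, equal medians, quantile normalization, plain empirical Bayes, 2 groups alone, sex or choroid plexus covariates, dropping the 7 libraries whose choroid plexus marker sum was over 3 times the median and leaving out each library; a hippocampal marker covariate was added after seeing the data. Sequences came from RefSeq promoters (GRCm38.p6), other coordinates from the deposited table (mm9).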

Additional observations from a re-analysis of the deposited data

Results flagged for a closer look

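Among the 28 groups of 6 animals examined (the 5 members, Klf5 and Klf15 in each of 4 groups), 3 held an animal that stood apart, by a gap to its nearest neighbour that passed Dixon's 95% limit; chance flags about 1 group in 20. Klf2 was highest in WT trained animal 2436, at 6.36 RPKM, where the other 5 lay between 4.65 and 5.14, and the same animal had the highest Egr1, 123 RPKM. Klf4 was lowest in WT home cage animal 2404, at 1.33 RPKM. Klf10 was highest in Baf53b+/- trained animal 2416, at 16 RPKM. Leaving out any single animal did not end the training call for Klf2 or Klf4 in either genotype.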

How the results depend on the processing

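Klf2's training calls held under every alternative run (0.57 to 0.70 in WT, 0.70 to 0.86 in Baf53b+/- animals), and Klf4's in Baf53b+/- animals did too (0.41 to 0.59). Klf4's WT call was lost with the 2 groups alone (0.46, adjusted p = 0.0541) and with the added hippocampal covariate (0.40, adjusted p = 0.0690). That covariate brought Klf9's averaged difference past the threshold (0.13). Klf6's WT difference of 0.21 was under 0.05 only without adjustment, in the exact permutation test (p = 0.039) and in limma (unadjusted limma p = 0.0242). The cause was not tested. Differences near 0 changed sign: Klf9 in WT was -0.012 with equal medians and -0.0048 with quantile normalization; Klf6 in Baf53b+/- animals was -0.014 without the choroid plexus rich libraries. After training the genotype difference of Klf4 was 0.0028 with equal medians, 0.00024 with the choroid covariate and 0.037 with the hippocampal one, which gave 0.030 for Klf6 and -0.0018 for Klf9. The interaction of Klf10 was 0.0077 with equal medians, 0.0079 with quantile normalization, 0.0152 with sex, 0.0147 without the choroid rich libraries and 0.0061 with the hippocampal covariate.

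Genes called numbered 68 (WT), 42 (Baf53b+/-) and 235 (averaged) without the choroid rich libraries, 75 and 84 with 2 groups alone, and 228 (Baf53b+/-) and 807 (averaged) with the hippocampal covariate. For genotype after training, 2 were called with a pseudocount of 1, equal medians or plain empirical Bayes.

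Leaving out single libraries gave 1 to 2 genes for genotype after training, with 2 when WT animal 2405 or 2421 or Baf53b+/- animal 2400, 2401 or 2424 was left out. It gave -0.042 to 0.060 (after training), -0.017 to 0.104 (home cage), -0.077 to 0.045 (interaction) and 0.166 to 0.235 (averaged training) for Klf10. For Klf4 it gave -0.059 to 0.042 (after training), -0.090 to 0.021 (home cage) and -0.024 to 0.088 (interaction). It gave -0.0068 to 0.124 for Klf6 in the home cage, -0.071 to 0.019 for Klf9 in the home cage and -0.025 to 0.047 for Klf9 training in WT. No paired analysis was possible because no animal number occurs in more than 1 group. No pool term could be fitted.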
